A study of Mus musculus with 11 samples.

Results

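The genes described here encode ligands, receptors and a co-receptor of the VEGF and angiopoietin systems. They are Vegfa, Vegfc, Flt1, Kdr, Flt4, Nrp1, Angpt1, Angpt2, Tek and Tie1, 10 genes of the 32287 listed in the count tables. They were chosen by symbol and not by a cut on a measured value, but with earlier results of these data known, and all 10 were found. Single cells were taken from the brains of 6 R182C-TgN3 mice (CADASIL mice) and 5 WT-TgN3 mice (control mice), with 1 library per mouse. Both groups carry a human NOTCH3 transgene besides mouse Notch3, with the CADASIL variant R182C in the CADASIL mice (labelled Tg350) and the wild-type sequence in the control mice (labelled Tg100). The mice were untreated, of both sexes and 6 or 9 months old, with 3 CADASIL and 3 control mice at 6 months and 3 CADASIL and 2 control mice at 9 months. Microvascular fragments were captured with beads against CD31, an endothelial surface protein, before they were dissociated, so the share of each cell type reflects the capture as well as the brain.

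VEGF ligands act on 3 receptor tyrosine kinases of endothelial cells. Kdr (VEGFR2) carries most of the growth and permeability signal of Vegfa, Flt1 (VEGFR1) binds Vegfa tightly but signals weakly and limits how much of it reaches Kdr, and Flt4 (VEGFR3) is the main receptor of Vegfc. Nrp1 is a co-receptor that holds VEGF ligands beside these kinases. Angpt1, made mainly by mural cells, activates the receptor kinase Tek (Tie2) and stabilises the vessel wall, whereas Angpt2 can act as its antagonist, and Tie1 is a partner of Tek without a well-established ligand of its own. In the brain these systems maintain the capillary bed and the fenestrated vessels of the choroid plexus and related sites.

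The libraries held between 17550806 and 64215050 unique molecular identifiers (UMIs, each standing for 1 captured transcript). Of 66658 barcodes, 61625 passed a minimum of 500 detected genes and a mitochondrial share of no more than 10%. A further 1722 were left out because their barcode sequence occurred in more than 1 library, with 350 such sequences shared by R182C-TgN3 4 and R182C-TgN3 5. The 59903 kept cells were assigned to a type by counting detected marker genes, none of which is a member. Cells with the markers of more than 1 class made up 9.617%. R182C-TgN3 4 held 1021 of them among 4567 cells, and R182C-TgN3 1, with the next highest count, 940 among 9713. All such cells were left out, which was the only treatment of doublets. This gave 34993 endothelial cells (EC), of which 5679 were arterial, 15966 capillary, 4823 venous and 1593 fenestrated, together with 1724 vascular smooth muscle cells (SMC), 461 pericytes (PC), 14093 microglia (MG), 648 B cells and 105 choroid plexus epithelial cells. Separate check markers were compared between types for EC, its 4 subtypes, SMC, PC and choroid plexus epithelial cells. Each had its highest level in the named type, except Ephb4 among the 5 of venous EC and Cyp1b1 among the 4 of fenestrated EC. The gates of MG and B cells were not checked in this way. The venous gate took deep cells, with 11559 UMIs per cell in the median mouse against 4050.5 in capillary EC, and 69.272% of its cells held the smallest number of markers allowed. Levels below are UMIs of a gene per 1000000 UMIs of that cell type in that mouse (CPM), and errors are standard deviations (SD) between mice. The chemistry counts the 3′ end of each transcript, so CPM needs no correction for gene length, and splice forms of a gene such as soluble Flt1 are counted together.

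On the mm10 build the genes lie at chr17:46016993-46032369 (Vegfa, minus strand), chr8:54077606-54187096 (Vegfc, plus), chr15:42424723-42676977 (Angpt1, minus), chr8:18690263-18741562 (Angpt2, minus), chr5:147561604-147726011 (Flt1, minus), chr5:75932827-75978458 (Kdr, minus), chr11:49609263-49652739 (Flt4, plus), chr8:128358604-128503363 (Nrp1, plus), chr4:94739289-94874976 (Tek, plus) and chr4:118471191-118490061 (Tie1, minus), all annotated as protein-coding. The promoters of Flt1 and Kdr, the receptor pair compared most closely below, of Tek, the angiopoietin receptor, and of Vegfc, a ligand that differed between vessel types, are shown for reference. Each run is up to 250 bases of sequence before the RefSeq start of the gene, 5′ to 3′ on the gene's strand, on mouse GRCm38.p6, and lies outside the annotated gene body. Capitals mark GGAAG or its reverse complement CTTCC, a string that holds the shorter GGAA core of ETS family factors such as Erg and Fli1. GGAA followed by another base is not marked.
Flt1 promoter (chr5:147726012-147726261, minus strand): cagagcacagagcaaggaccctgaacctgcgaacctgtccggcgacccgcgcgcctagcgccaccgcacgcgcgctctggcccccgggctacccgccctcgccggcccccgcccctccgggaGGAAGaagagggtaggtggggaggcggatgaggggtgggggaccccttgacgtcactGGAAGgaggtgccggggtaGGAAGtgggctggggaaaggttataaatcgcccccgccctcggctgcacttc
Kdr promoter (chr5:75978459-75978705, minus strand): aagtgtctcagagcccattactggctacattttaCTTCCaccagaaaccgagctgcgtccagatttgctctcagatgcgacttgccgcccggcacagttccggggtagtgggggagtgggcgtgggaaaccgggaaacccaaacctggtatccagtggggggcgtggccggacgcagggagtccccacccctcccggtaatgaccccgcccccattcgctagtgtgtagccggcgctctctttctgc
Tek promoter (chr4:94739039-94739288, plus strand): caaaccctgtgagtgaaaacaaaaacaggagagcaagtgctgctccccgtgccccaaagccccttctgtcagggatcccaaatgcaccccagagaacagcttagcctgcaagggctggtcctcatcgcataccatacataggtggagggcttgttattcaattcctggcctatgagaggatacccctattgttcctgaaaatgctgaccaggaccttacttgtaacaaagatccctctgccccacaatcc
Vegfc promoter (chr8:54077282-54077531, plus strand): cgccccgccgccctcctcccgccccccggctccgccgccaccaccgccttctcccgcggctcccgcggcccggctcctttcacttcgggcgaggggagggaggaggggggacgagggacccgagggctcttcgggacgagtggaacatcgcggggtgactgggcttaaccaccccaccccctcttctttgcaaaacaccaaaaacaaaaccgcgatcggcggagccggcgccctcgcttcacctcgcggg
The Flt1 run holds 3 matches to the marked string, the Kdr run 1, and the Tek and Vegfc runs 0. GGAA cores outside that string were not counted. At least 1 match occurs in 64.1% of the 32851 promoter windows of the same reference, so the matches are a description of the letters and single out no gene.

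The plot of levels by mouse and cell type gives an overview of all 10 genes. Flt1, Kdr, Flt4, Tek and Tie1 were high in every endothelial subtype and low elsewhere, Nrp1 was spread over endothelial, mural and myeloid cells, Vegfc was arterial, Angpt1 was highest in SMC, and Vegfa was near the detection limit in most types. The tests of order compared, for each gene, cell types that were neighbours in mean level. They used a 2-sided exact sign-flip permutation test over mice of the difference in log2(CPM + 1), and of 70 such neighbour pairs over the 10 genes 33 had an adjusted p under 0.05 (Benjamini-Hochberg over the 70 pairs). With 11 mice the smallest p this test can give is 0.000977.

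**Figure D1:**
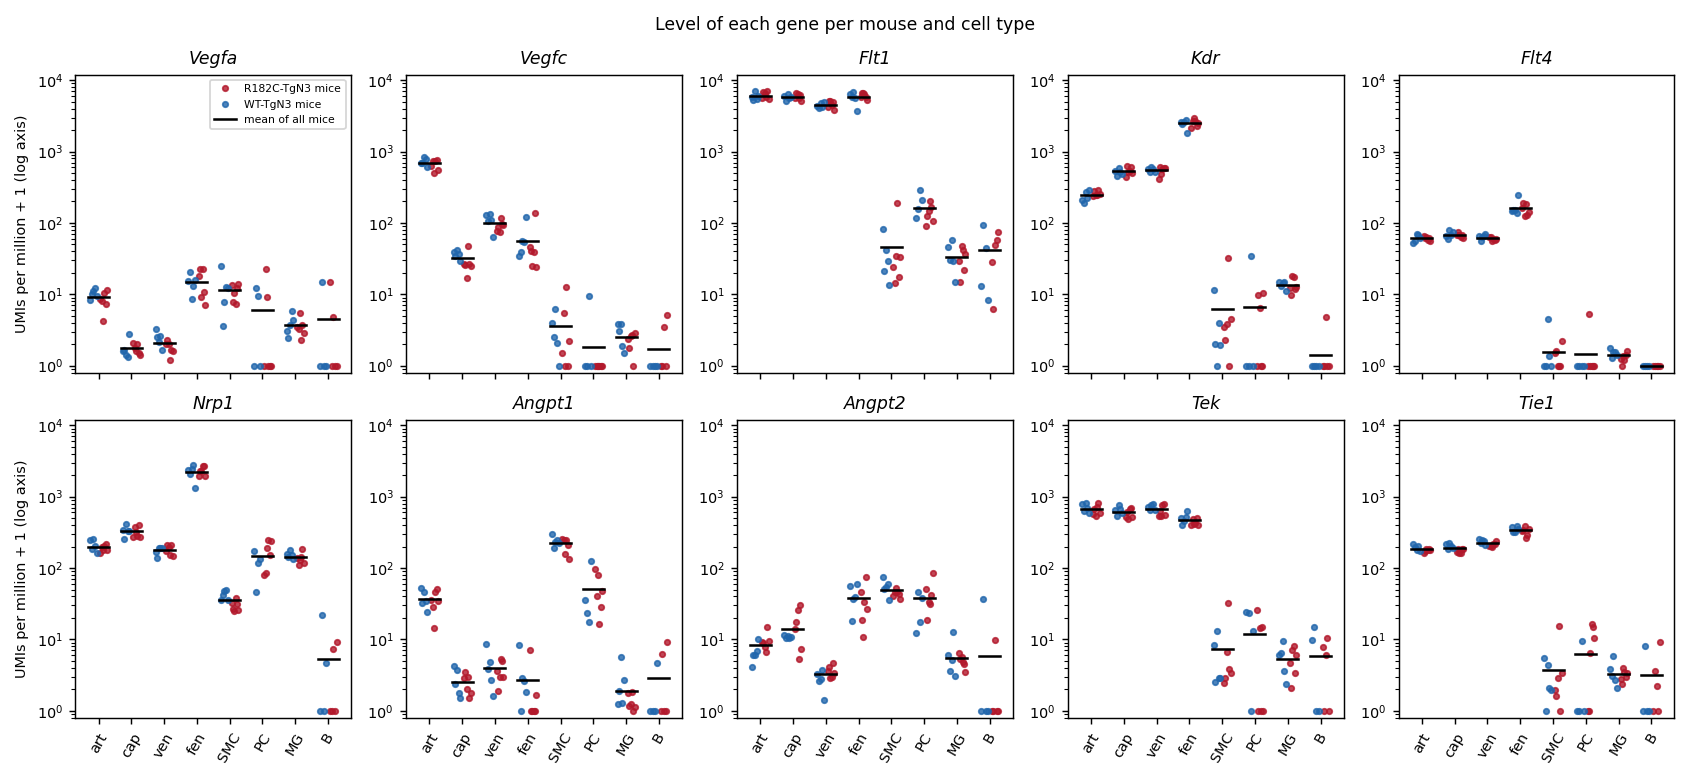
Level of each gene (UMIs per 1000000 + 1, log axis) per mouse in arterial, capillary, venous and fenestrated EC, SMC, PC, MG and B cells. Red points are R182C-TgN3 mice, blue points WT-TgN3 mice and bars the mean of all mice. Kdr and Nrp1 stood highest in fenestrated EC (means of 2507 and 2246 CPM), Vegfc in arterial EC (685 CPM) and Angpt1 in SMC (220 CPM), and the points of both genotypes overlap in each of these types.

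Among the VEGF ligands, Vegfc differed sharply between vessel types. In arterial EC it reached 685 ± 102 CPM (SD, n = 11 mice), with a lowest mouse at 504, a median of 687 and a highest mouse at 838. Venous EC had 97.8 ± 22.8 CPM, fenestrated EC 55.1 ± 38.3 and capillary EC 30.8 ± 8.86 (n = 11 each). No mouse had as much Vegfc in any other endothelial subtype as the lowest mouse had in arterial EC. The arterial level exceeded the venous level by 2.82 ± 0.26 on the log2 scale in 11 of 11 mice (exact sign-flip permutation test, adjusted p = 0.00488), and the venous level exceeded the fenestrated one by 1.02 ± 0.94 in 9 of 11 mice (adjusted p = 0.0228). Under a looser marker gate the venous to fenestrated difference turned to -0.28, without a call. The step from fenestrated to capillary EC, 0.64 ± 0.86 in 8 of 11 mice (adjusted p = 0.0342, exact permutation test), was not stable. The call was lost when any one of R182C-TgN3 1, 2, 3 or 5 or WT-TgN3 3, 4 or 5 was left out, with differences from 0.46 to 0.73 and adjusted p from 0.0293 to 0.0663 over the 11 left-out mice. Under the other alternatives the difference ran from 0.42 to 1.68 and the adjusted p from 0.00427 to 0.220 (exact permutation test). In fenestrated EC, R182C-TgN3 5 with 139 CPM and WT-TgN3 5 with 120 CPM stood above the other mice, which had at most 55.3 CPM. Mural cells held almost none, with 2.58 ± 3.45 CPM in SMC and 0.838 ± 2.65 in PC, where a single UMI was counted over 10 mice.

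Vegfa, the main ligand of Kdr and Flt1, was low in every type with enough cells per mouse. Fenestrated EC had 13.9 ± 5.59 CPM, SMC 10.5 ± 5.45 and arterial EC 8.20 ± 2.29 (n = 11 each), and neighbours in this order did not differ beyond their spread (adjusted p = 0.349 and 0.567, exact sign-flip permutation tests). In capillary EC the level was 0.742 ± 0.414 CPM, which is 57 UMIs over 11 mice. The highest Vegfa values came from rare cells that could only be pooled over mice: 99.9 CPM in 77 fibroblasts (87 UMIs, exact Poisson 95% interval 80.0 to 123) and 44.9 CPM in 105 choroid plexus epithelial cells (90 UMIs, interval 36.1 to 55.2). These intervals cover counting error only, and no more than 1 mouse had 20 cells of either type. By mouse, for the 6 mice with at least 10 choroid plexus epithelial cells, Vegfa there had a median of 31.4 CPM, between 0 and 66.0. Astrocytes and neurons, which are well-known sources of Vegfa in the brain, are not among the types described here.

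Both angiopoietins had their highest mean in SMC among the types compared by mouse. Angpt1, the activating ligand of Tek, was at 220 ± 46.8 CPM in SMC (lowest 134, median 227, highest 299, n = 11), at 50.0 ± 36.6 in PC (lowest 15.4, median 36.8, highest 123, n = 10) and at 35.2 ± 11.6 in arterial EC (lowest 13.4, median 33.7, highest 51.4, n = 11). SMC exceeded PC by 2.40 ± 1.10 on the log2 scale in 10 of 10 mice (exact sign-flip permutation test, adjusted p = 0.00621), and the lowest SMC value lay above the highest PC value. PC and arterial EC did not differ beyond their spread (0.20 ± 1.37, higher in PC in 5 of 10 mice, adjusted p = 0.764, exact permutation test), and some PC values rest on few UMIs, between 1 and 29 per mouse. Within the endothelium, Angpt1 was arterial: venous EC had 2.94 ± 1.95 CPM, fenestrated EC 1.67 ± 2.58 and capillary EC 1.57 ± 0.956. The arterial level exceeded the venous one by 3.27 ± 0.50 in 11 of 11 mice (exact sign-flip permutation test, adjusted p = 0.00488). Pooled fibroblasts held 344 CPM of Angpt1 (300 UMIs, exact Poisson 95% interval 306 to 386).

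Because SMC and arterial EC sit next to each other in the vessel wall, the smooth muscle markers in arterial EC are given beside the arterial Angpt1. Pooled over mice, Angpt1 in arterial EC was 14.7% of its level in SMC, while of the 6 smooth muscle check markers Lmod1 was at 0.119%, Myl9 at 0.138%, Map3k7cl at 0.167%, Actg2 at 0.412%, Pdlim3 at 0.452% and Sncg at 9.59%. Sncg was higher still in fenestrated EC, at 15.8% of its SMC level. In capillary EC Angpt1 was at 0.650% of its SMC level. In arterial EC, 5 of the 6 markers were at under 0.5% of their SMC level, Sncg was at 9.59% and Angpt1 at 14.7%. Whether RNA from SMC contributed to the arterial Angpt1 was not tested.

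Angpt2 was less tied to a single type. It was at 47.9 ± 11.3 CPM in SMC (lowest 34.2, median 44.9, highest 72.8, n = 11), at 37.0 ± 19.5 in fenestrated EC (lowest 9.69, median 36.2, highest 73.0, n = 11) and at 36.8 ± 21.3 in PC (lowest 11.5, median 34.7, highest 85.2, n = 10), and these neighbours did not differ beyond their spread (adjusted p = 0.156 and 0.930, exact sign-flip permutation tests). The difference between SMC and fenestrated EC was called when the cells with the most UMIs were left out. Capillary EC followed with 13.1 ± 7.62 CPM, arterial EC with 7.22 ± 2.91 and venous EC with 2.23 ± 0.853. PC exceeded capillary EC in 10 of 10 mice (1.37 ± 1.19 on the log2 scale, adjusted p = 0.00621), and capillary EC exceeded arterial EC in 9 of 11 mice (0.68 ± 0.67, adjusted p = 0.022), by the same exact permutation test.

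Flt1 was abundant in all 4 EC subtypes. Arterial EC had 6069 ± 652 CPM, capillary EC 5878 ± 515 and fenestrated EC 5873 ± 857, and neighbours in this order did not differ beyond their spread (adjusted p = 0.0779 and 0.970, exact sign-flip permutation tests, n = 11). The arterial to capillary difference was called without WT-TgN3 4 (0.0536, adjusted p = 0.0210, exact permutation test) and with a looser marker gate (0.0504, adjusted p = 0.0353), and turned to -0.0181, without a call, with a stricter one. Venous EC were lower, at 4558 ± 448 CPM, with fenestrated over venous at 0.36 ± 0.27 on the log2 scale in 10 of 11 mice (adjusted p = 0.0158). The mouse that did not follow was WT-TgN3 5, whose fenestrated EC had 3730 CPM of Flt1 against 5295 to 6735 in the other mice. The same library had the lowest fenestrated Kdr (1827 CPM) and Nrp1 (1330 CPM) and the most fenestrated cells (322).

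Kdr differed strongly among the same cells. Fenestrated EC had 2507 ± 326 CPM (lowest 1827, median 2586, highest 2990), venous EC 547 ± 59.8, capillary EC 529 ± 60.9 and arterial EC 249 ± 31.9 (n = 11 each). The lowest fenestrated value was above every value of the other subtypes, and the highest arterial value, 291 CPM, was below the lowest venous and capillary values of 418 and 445 CPM. Fenestrated over venous EC was 2.19 ± 0.22 and capillary over arterial EC 1.09 ± 0.17 on the log2 scale, each in 11 of 11 mice (adjusted p = 0.00488, exact sign-flip permutation test). Venous and capillary EC did not differ beyond their spread (0.05 ± 0.12, 7 of 11 mice, adjusted p = 0.342).

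Flt4, the Vegfc receptor and best known from lymphatic vessels, was at 159 ± 36.2 CPM in fenestrated EC and between 59.9 and 67.4 CPM on average in the other subtypes. Fenestrated over capillary EC was 1.21 ± 0.27 on the log2 scale and capillary over venous EC 0.14 ± 0.11, higher in 11 and 10 of 11 mice (adjusted p = 0.00488 and 0.00621, exact sign-flip permutation test), while venous and arterial EC did not differ beyond their spread (0.02 ± 0.14, adjusted p = 0.764). Under a stricter marker gate arterial EC were above venous EC instead (-0.21, adjusted p = 0.0127). Prox1, the regulator that defines lymphatic endothelium, averaged between 0.172 CPM in capillary EC and 1.28 CPM in fenestrated EC.

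The co-receptor Nrp1 followed Kdr at its upper end. Fenestrated EC had 2246 ± 413 CPM (lowest 1330, median 2294, highest 2738), far above capillary EC with 325 ± 55.4, arterial EC with 198 ± 30.1 and venous EC with 178 ± 25.1 (n = 11 each). Fenestrated over capillary EC was 2.78 ± 0.33 and capillary over arterial EC 0.71 ± 0.21 on the log2 scale in 11 of 11 mice (adjusted p = 0.00488, exact sign-flip permutation test). Nrp1 was also present outside the endothelium, at 145 ± 66.8 CPM in PC (n = 10), 143 ± 21.9 in MG and 34.4 ± 8.30 in SMC (n = 11). Venous EC, PC and MG did not differ beyond their spread (adjusted p = 0.210 and 0.764), and MG exceeded SMC by 2.05 ± 0.27 in 11 of 11 mice (adjusted p = 0.00488). Pooled perivascular macrophages had 555 CPM (384 UMIs, exact Poisson 95% interval 501 to 614) and pooled fibroblasts 527 CPM (459 UMIs, interval 480 to 577).

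Both angiopoietin receptors were present in all 4 EC subtypes. Tek was at 673 ± 95.7 CPM in arterial EC, 669 ± 97.3 in venous EC, 609 ± 86.8 in capillary EC and 468 ± 71.0 in fenestrated EC (n = 11 each). Arterial and venous EC did not differ beyond their spread (0.01 ± 0.10, adjusted p = 0.790), venous exceeded capillary EC by 0.13 ± 0.08 in 11 of 11 mice (adjusted p = 0.00488), and capillary exceeded fenestrated EC by 0.38 ± 0.22 in 10 of 11 (adjusted p = 0.00621, exact sign-flip permutation tests). With a stricter marker gate arterial exceeded venous EC by 0.104 (adjusted p = 0.0244, exact permutation test). Fenestrated EC were thus lowest for Tek and highest for its partner Tie1, which was at 337 ± 39.9 CPM there against 223 ± 18.7 in venous EC, 187 ± 20.1 in capillary EC and 184 ± 14.7 in arterial EC. Tie1 in fenestrated EC exceeded venous EC by 0.59 ± 0.20 and venous exceeded capillary EC by 0.25 ± 0.09, each in 11 of 11 mice (adjusted p = 0.00488, exact permutation test), and capillary and arterial EC did not differ beyond their spread (adjusted p = 0.764).

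Kdr and Flt1 compete for the same ligand, so their UMIs in the same cells were set against each other. The ratio itself depends on how well each transcript is captured, and only its differences between subtypes are read. Per UMI of Flt1, arterial EC had 0.0410 ± 0.0040 UMIs of Kdr, capillary EC 0.0900 ± 0.0067, venous EC 0.121 ± 0.017 and fenestrated EC 0.430 ± 0.044 (SD, n = 11). The ranges over mice were 0.0358 to 0.0479 in arterial EC, 0.0785 to 0.0987 in capillary EC, 0.0936 to 0.155 in venous EC and 0.373 to 0.503 in fenestrated EC, so the arterial and the fenestrated range overlapped with no other. On the log2 scale the ratio was higher by 2.25 ± 0.18 in fenestrated than in capillary EC, by 1.14 ± 0.16 in capillary than in arterial EC, by 0.42 ± 0.14 in venous than in capillary EC and by 1.55 ± 0.24 in venous than in arterial EC. Each of these 4 differences had the same sign in 11 of 11 mice, with p = 0.000977 before and after adjustment over the 4 pairs (exact sign-flip permutation test), the smallest it can give.

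**Figure D2:**
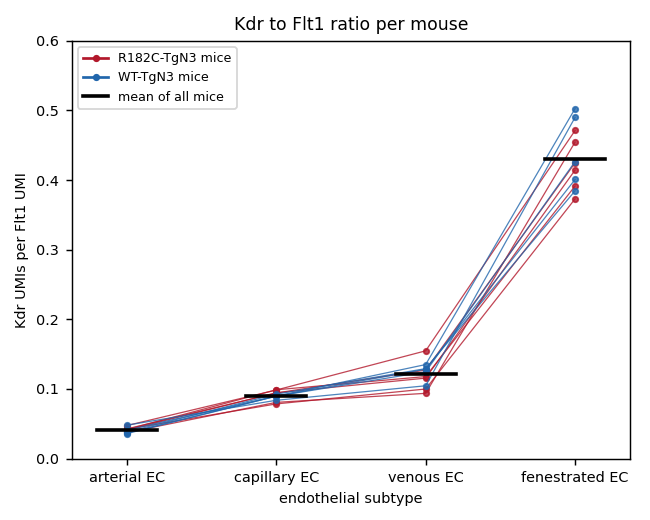
UMIs of Kdr per UMI of Flt1 in each of 4 endothelial subtypes, 1 line per mouse. Red lines are R182C-TgN3 mice, blue lines WT-TgN3 mice and black bars the mean of all mice. The mean rises from 0.0410 in arterial EC to 0.430 in fenestrated EC, and the lines of both genotypes run together.

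The subtypes are cut from a continuum, so the genes were also followed over all EC outside the fenestrated gate by how many of 8 arterial gate markers a cell showed. Vegfc rose in mean level at every added marker, from 44.1 ± 12.3 CPM at 0 markers to 360 ± 89.3 at 4 and 894 ± 176 at 8. Angpt1 went from 2.06 ± 0.823 to 12.98 ± 10.4 CPM at 4 markers and 79.4 CPM at 8, where it lay between 51.1 and 114.5 CPM. Kdr went the other way, from 547 ± 58.3 through 329 ± 46.7 to 145 ± 34.4 CPM. Tek stayed between 632 and 706 CPM on average. Vegfa, although low, was at 0.717 ± 0.450 CPM without any arterial marker and at 20.3 ± 5.83 CPM with all 8. The median number of UMIs per cell went from 4201 to 13353 over the same range, and its part in these trends was not tested. The group with 8 markers rests on 398 cells of 10 mice, the others on 11 mice.

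**Figure D3:**
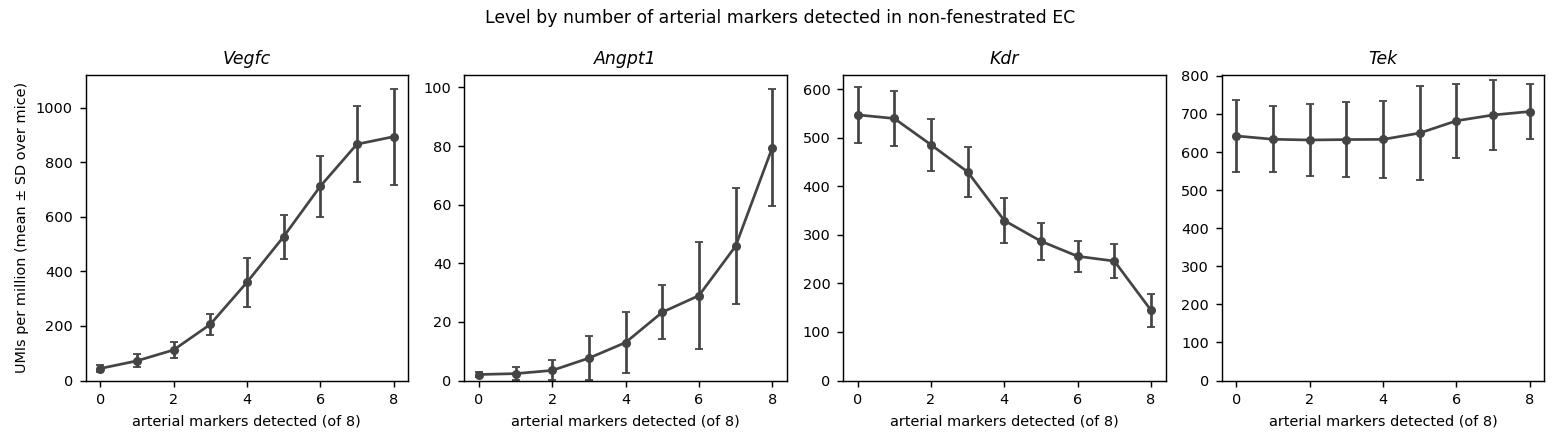
Mean level (UMIs per 1000000, ± SD over mice) of Vegfc, Angpt1, Kdr and Tek in EC outside the fenestrated gate, by the number of arterial gate markers detected in a cell (0 to 8). Vegfc and Angpt1 increase to 894 and 79.4 CPM at 8 markers, Kdr decreases from 547 to 145 CPM, and Tek stays within 632 to 706 CPM.

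Low levels of endothelial receptors outside the endothelium were set against the RNA of other endothelial genes in the same cells. For this, the level in a cell type was expressed as a percentage of the level in EC, for each receptor and for 5 endothelial check markers that took no part in the gating (Erg, Ramp2, Podxl, Sox17 and Clec14a). A sixth marker, Tm4sf1, is expressed by mural cells (30.6% of the EC level in SMC and 77.7% in PC) and was left out after these values were seen. In SMC the receptors Flt1, Kdr, Flt4, Tek and Tie1 were at 0.634% to 1.06% of their EC level, and the 5 markers at 0.651% to 3.59%. Erg alone gave the upper end, and the other markers were at 0.651% to 0.927%. Flt4 lay just below these other markers, Flt1, Kdr and Tek within their range, and Tie1 at 1.06% above it. Mouse by mouse, Flt1 in SMC was below the summed markers in 11 of 11 mice, at 0.858% ± 1.05 against 1.48% ± 1.26 of the EC level. That sum includes Erg, and the comparison was not repeated without Erg. R182C-TgN3 4 stood apart, with 5.08% for the markers, 3.82% for Flt1 and 192 CPM of Flt1 in its SMC against 12.3 to 81.7 in the other mice.

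Against the same 5 markers, 3 receptors were above the markers in every mouse in particular cells. Flt1 in PC was at 159 ± 59.0 CPM (lowest 90.0, median 152, highest 285, n = 10), which is 2.96% ± 1.04 of the EC level against 1.41% ± 0.771 for the summed markers, and it was above them in 10 of 10 mice. This result for Flt1 holds against the 5 markers only. Tm4sf1, which was left out, was at 77.7% of its EC level in PC, far above Flt1, and the comparison was not repeated with it. Kdr in MG was at 12.7 ± 2.46 CPM, or 2.29% ± 0.582 of the EC level against 0.897% ± 0.378 for the markers, and it was above them in 11 of 11 mice. Tie1 in MG, at 1.12% ± 0.442, was above them in 9 of 11 mice, whereas Flt1 and Tek in MG were at 0.612% and 0.697% of the EC level. In PC, Tie1 was at 2.63% ± 3.16 and Tek at 1.80% ± 1.77, above the markers in 5 and 6 of 10 mice. They rest on 6 and 17 UMIs pooled over 461 PC. Kdr and Flt4 in PC were at 0.939% and 0.589%, below the mean of the markers. Nrp1 was far above the markers, at 46.2% ± 25.2 of the EC level in PC, 44.1% ± 7.20 in MG and 10.6% ± 2.74 in SMC, and above them in every mouse. In B cells Nrp1 was at 1.26% ± 1.90 against 1.07% ± 0.607 for the markers, and above them in 4 of 9 mice.

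**Figure D4:**
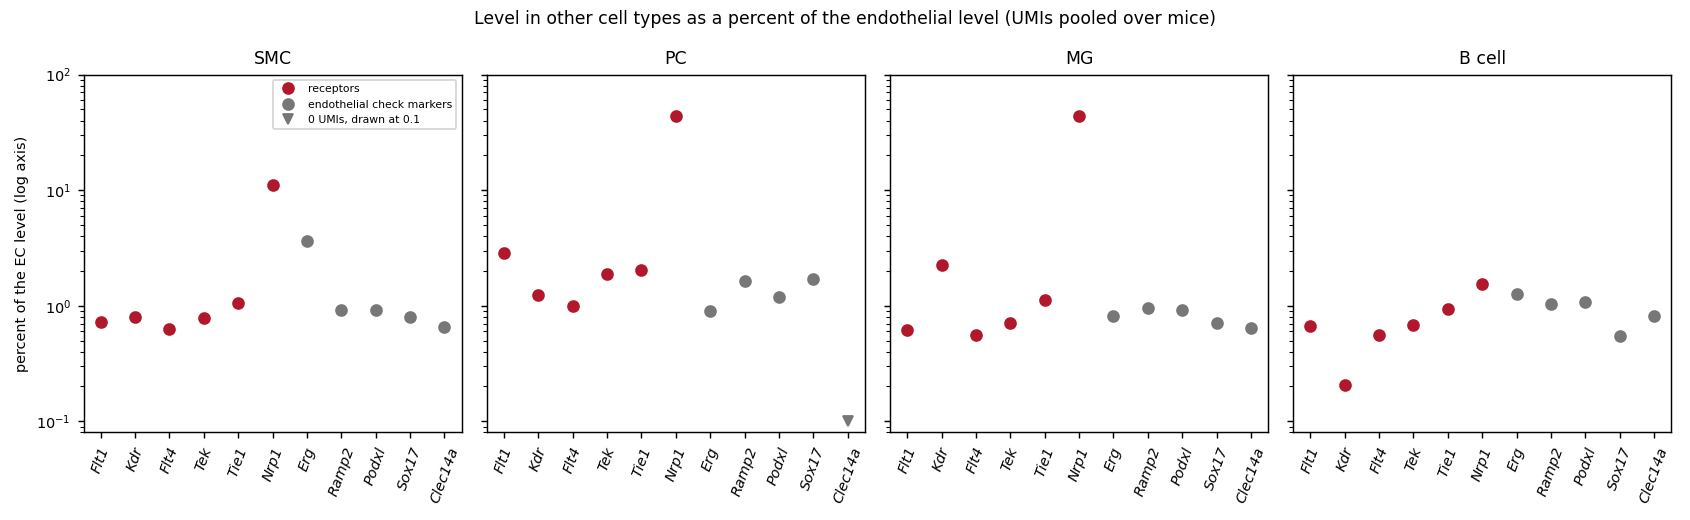
Level in SMC, PC, MG and B cells as a percent of the level in EC (log axis, UMIs pooled over mice) for 6 receptors (red) and 5 endothelial check markers (grey). The triangle is Clec14a in PC, where no UMI was counted. Nrp1 lies at 11.1% in SMC, 43.6% in PC and 43.4% in MG, whereas the other receptors lie between 0.208% (Kdr in B cells) and 2.85% (Flt1 in PC).

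Detection in single cells depends on depth, so every cell was thinned to 2000 UMIs before counting cells with at least 1 UMI, and shallower cells were left out (1046 of 15966 capillary, 106 of 5679 arterial, 19 of 4823 venous and 39 of 1593 fenestrated EC). Kdr was then detected in 34.3% ± 3.79 of arterial EC, 60.5% ± 4.56 of capillary EC, 63.7% ± 5.23 of venous EC and 97.0% ± 1.77 of fenestrated EC (SD, n = 11). Without thinning these shares were 67.0%, 79.6%, 95.4% and 99.5%. In B cells, which should lack these genes and had 3683 UMIs per cell in the median mouse against 4050.5 in capillary EC, 3004.5 in PC and 7375.5 in SMC, 0 of 597 thinned cells had a Kdr UMI, which allows a share of up to 0.503% at that depth. Without thinning, 3 of 624 B cells had one. Vegfc was detected in 59.6% ± 5.37 of arterial EC (80.5% unthinned) and in 4.36% ± 1.02 of capillary EC (7.40% unthinned), against 0.118% ± 0.353 of B cells. Nrp1 was detected in 95.9% ± 4.41 of fenestrated EC, 23.4% ± 3.34 of MG and 21.7% ± 10.5 of PC (8 mice), against 0.4997% ± 0.994 of B cells. Angpt1 was detected in 33.3% ± 7.04 of SMC (64.5% unthinned) and 5.80% ± 2.02 of arterial EC (14.1% unthinned), against 0.672% ± 1.07 of B cells. Flt1 was seen in 23.2% ± 9.28 of PC, against 8.70% ± 5.88 of B cells, 6.20% ± 3.31 of SMC and 5.41% ± 2.12 of MG. The mean of PC was thus above that of B cells, and those of SMC and MG were not. The ranges over mice overlapped, at 8% to 35.7% in PC (8 mice) and 1.41% to 16.7% in B cells (9 mice), and were not tested.

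Other genes of the pathway were also spread over the vessel wall. Among the other ligands, Pgf, which binds Flt1, and Vegfb were highest in SMC (94.4 ± 16.1 and 54.7 ± 9.32 CPM), as was Angpt4 (8.30 ± 4.11 CPM), while Vegfd, a ligand of Flt4, was highest in venous EC (55.4 ± 8.23 CPM). Of the co-receptors and phosphatases, Nrp2 was highest in venous EC (429 ± 78.2 CPM), as was Ptprb (2425 ± 315 CPM), the phosphatase that restrains Tek, and Plxnd1 was highest in fenestrated EC (272 ± 26.4 CPM). Among genes induced by VEGF in other settings, Esm1 was highest in fenestrated EC (1099 ± 281 CPM), as was the feedback inhibitor Spry4 (126 ± 26.9 CPM), whereas Dll4, a Notch ligand, was highest in arterial EC (136 ± 20.6 CPM). Nos3, the endothelial nitric oxide synthase, and Epas1 (HIF2A) were also highest in arterial EC, at 284 ± 30.3 and 1827 ± 108 CPM. These are levels of genes in their highest type among the 8 compared, given without a test.

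For each member, the genes whose mean log2(CPM + 1) over the same 8 cell types correlated best with it were found among 6660 genes with at least 50 CPM in some type. Tie1 was most like Cyyr1, Egfl7 and Bcl6b, Flt4 most like Robo4, Tie1 and Egfl7, and Tek most like Kif26a, Ramp2 and Hspa12b (Pearson r between 0.997 and 0.999 for these 9). Flt1 was most like Ifi44, Srgap1 and Nova2, and Kdr most like 1700001K19Rik, Dab2 and Tnfsf10. Nrp1 was most like Jup, Lrrc8a and Cdipt. Vegfc was most like Pafah1b2, Gm16070 and Vps13d, and Vegfa most like Igfbp4, Ckap4 and Kirrel3. Angpt1 was most like Sox6, Mylk and Wnt5b, and Angpt2 most like Ctdspl, Slit3 and Endod1. Of the 30 correlations the lowest was 0.938. With 8 points that share libraries and an endothelial against non-endothelial split, high values are common, and these are a description only.

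The comparison of genotypes asked whether the CADASIL variant changed the level of any member in a vessel cell type. The transgene itself was checked first. Human NOTCH3 was at 172, 203, 253, 172, 178 and 327 CPM in the SMC of R182C-TgN3 1 to 6 and at 10.4, 56.9, 15.5, 52.4 and 26.6 CPM in WT-TgN3 1 to 5, without overlap. In PC it was at 734 to 1721 CPM in the CADASIL mice (median 1339) and at 412, 450, 386 and 441 CPM in the 4 control mice with enough PC. The difference was 2.57 ± 0.28 on the log2 scale in SMC (SE, edgeR quasi-likelihood test, adjusted p = 5.83e-05) and 1.60 ± 0.21 in PC (adjusted p = 0.000187), whereas mouse Notch3 averaged 543 and 627 CPM in SMC and 1068 and 1022 CPM in PC of CADASIL and control mice. The groups therefore differed in the amount of transgene RNA as well as in its sequence, and these cannot be told apart. Reads that fit both human NOTCH3 and mouse Notch3 cannot be assigned to either, so both levels are uncertain.

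No member was called different between genotypes in any cell type (edgeR quasi-likelihood test, adjusted p under 0.05, Benjamini-Hochberg over all genes tested in that type). This was 0 of 10 members tested in EC and in arterial EC, 0 of 9 in each of capillary, venous and fenestrated EC, 0 of 5 in SMC and 0 of 2 in PC. The remaining members were under the filter on low counts in that type. Of all genes tested, 0% were called in EC and in each of the 4 subtypes, 0.0123% in SMC and 0.053% in PC, and the gene called in SMC and in PC was NOTCH3 itself. At an unadjusted p under 0.05, 1 member passed in each of arterial EC, capillary EC, SMC and PC and 0 in EC, venous EC and fenestrated EC, where 1.75%, 2.31%, 2.89%, 4.4%, 1.62%, 1.36% and 2.95% of all genes did. DESeq2 called 0 members in these 7 types.

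The intervals show how large a difference these data leave room for. In EC, Flt1 was at 5165, 6147, 5949, 5023, 5861 and 4679 CPM in R182C-TgN3 1 to 6 and at 5352, 4758, 5921, 5084 and 5388 CPM in WT-TgN3 1 to 5. These values overlap throughout, and the log2 difference of CADASIL over control was 0.09 (95% interval -0.10 to 0.28). Kdr in EC ranged from 435 to 663 CPM in CADASIL and from 521 to 615 CPM in control mice, with a difference of 0.01 (-0.20 to 0.23). For Tek it was -0.10 (-0.30 to 0.10), for Nrp1 -0.09 (-0.33 to 0.15), for Flt4 -0.08 (-0.26 to 0.11) and for Tie1 -0.13 (-0.28 to 0.02). Among the ligands, Vegfc in arterial EC had a difference of -0.12 (-0.35 to 0.12), Angpt1 in SMC -0.14 (-0.45 to 0.17), Angpt2 in SMC -0.27 (-0.61 to 0.07) and Vegfa in SMC -0.02 (-0.80 to 0.76). Other types leave more room. The largest estimate of any member was Angpt2 in capillary EC at 0.73 (-0.02 to 1.48), opposite in sign to SMC. Vegfc was at -0.38 (-0.76 to 0.0019) in capillary EC and at -0.39 (-1.20 to 0.42) in fenestrated EC.

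Nrp1 in SMC had the lowest unadjusted p among the members. It was at 31.5, 25.7, 23.6, 37.6, 30.7 and 24.96 CPM in R182C-TgN3 1 to 6 and at 34.2, 40.5, 46.5, 48.3 and 35.1 CPM in WT-TgN3 1 to 5. Apart from R182C-TgN3 4 every CADASIL mouse was below every control mouse. The log2 difference was -0.49 (95% interval -0.82 to -0.16, edgeR quasi-likelihood test, unadjusted p = 0.00521, adjusted p = 0.9998), so it does not pass over all 8139 genes tested, of which 2.89% reached an unadjusted p under 0.05. The counts behind it were between 11 and 131 UMIs per mouse. Within batches the difference was -0.52 in batch 1, -0.13 in batch 3 and -0.87 in batch 4, which holds 1 mouse of each genotype.

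The others with an unadjusted p under 0.05 were smaller or rested on fewer UMIs. Angpt2 in arterial EC was at 8.34, 7.77, 6.81, 5.56, 14.1 and 8.60 CPM in CADASIL and at 3.09, 5.12, 5.08, 5.92 and 9.05 CPM in control mice, with a difference of 0.53 (95% interval 0.0031 to 1.06) and adjusted p = 0.9995 (edgeR quasi-likelihood test). Its within-batch differences were 0.12 in batch 1, 0.99 in batch 3 and 0.66 in batch 4, which holds 1 mouse per genotype. Tie1 in capillary EC differed by -0.18 (-0.33 to -0.02, adjusted p = 0.9999), with CADASIL mice between 160 and 186 CPM and control mice between 183 and 220, and with within-batch differences of -0.16, -0.23 and -0.26 in the same batches. Flt1 in PC differed by -0.57 (-1.12 to -0.02, adjusted p = 0.993), and its within-batch differences had both signs, -0.98 in batch 1, 0.44 in batch 3 and -1.44 in batch 4. Flt1 in SMC had a positive difference, 0.70 (-0.46 to 1.86), which became -0.42 without R182C-TgN3 4, the library with the high endothelial markers in its SMC.

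**Figure D5:**
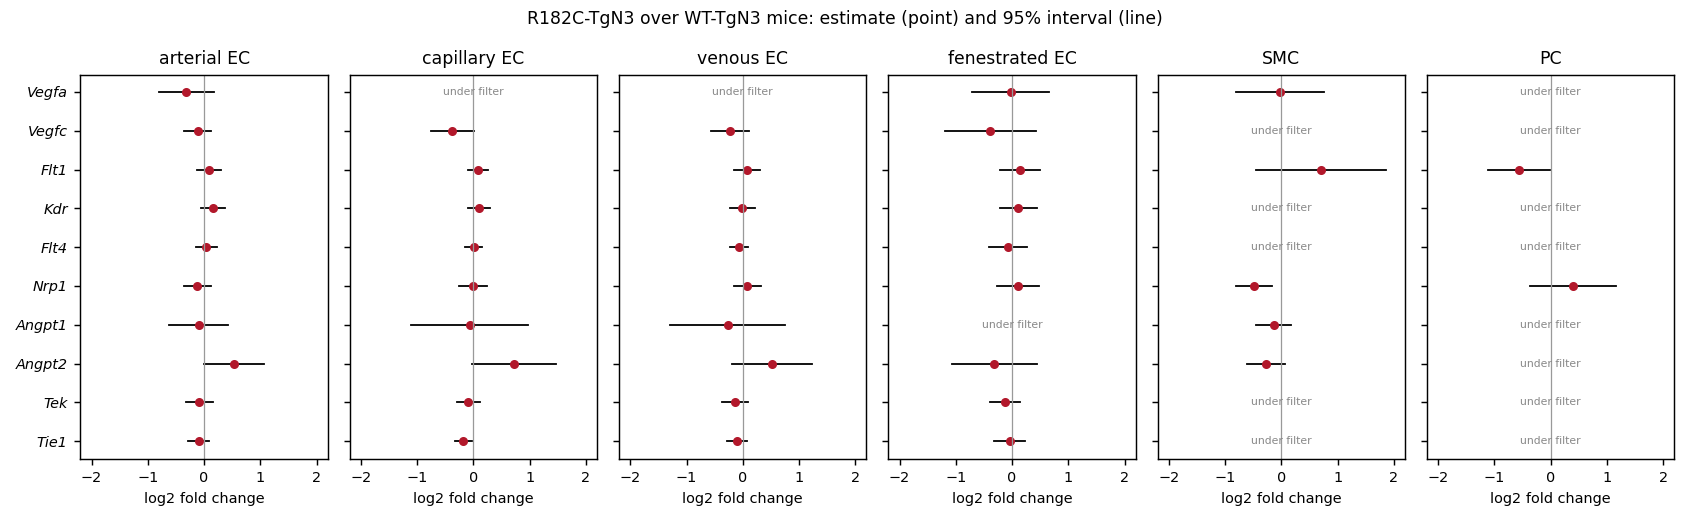
Log2 difference of R182C-TgN3 over WT-TgN3 mice for each gene in 6 cell types (points, edgeR estimate) with its 95% interval (lines). Genes under the filter on low counts have no point. The intervals are narrowest for the receptors in EC subtypes, such as capillary Flt4 at 0.00 (-0.15 to 0.16), and 4 of them leave out 0, none with an adjusted p under 0.05.

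The other genes of the pathway gave the same count. Of the 60 listed genes, none was called between genotypes in any type, with 0 of 8 co-receptors and phosphatases, 0 of 19 receptor signalling genes, 0 of 14 regulators, 0 of 13 VEGF response genes and 0 of 3 other ligands tested in EC (edgeR quasi-likelihood test). The largest differences were, in EC, -0.86 ± 0.32 for Aplnr, -0.84 ± 0.71 for Egln3 and -0.55 ± 0.58 for Prox1 (log2, SE), in SMC -0.50 ± 0.29 for Vhl, 0.44 ± 0.27 for Rcan1 and -0.36 ± 0.19 for Nr4a2, and in PC -0.70 ± 0.28 for Itgav, 0.48 ± 0.29 for Foxc1 and -0.33 ± 0.19 for Pik3r1. The lowest adjusted p over these lists was 0.965. The median difference over the members tested was -0.09 in EC, -0.14 in SMC (5 members) and -0.09 in PC (2 members). By subtype it was -0.09 in arterial, -0.0077 in capillary, -0.07 in venous and -0.04 in fenestrated EC. Over all genes tested the medians of these types lay between -0.0081 and 0.0059. These medians were not compared by a test.

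Age can only be described, since no batch held mice of both ages and the age and the batch cannot be told apart. No member was called between 9 and 6 months in an additive fit with genotype (edgeR quasi-likelihood test), where 0.819% of all genes were called in EC, 1.12% in arterial EC, 1.2% in capillary EC, 0.282% in venous EC, 0.0106% in fenestrated EC, 0.0895% in SMC and 0.158% in PC. At an unadjusted p under 0.05 stood 2 members in EC, 3 in arterial EC, 1 in capillary EC, 2 in venous EC, 0 in fenestrated EC, 3 in SMC and 1 in PC, where 15.9%, 14.8%, 14.5%, 11.4%, 7.37%, 8.02% and 6.67% of all genes did. The nearest to the threshold was Angpt1 in arterial EC, which was lower at 9 months by a log2 difference of -0.66 (95% interval -1.05 to -0.26, adjusted p = 0.0939). At 9 months it was at 34.6, 27.5, 13.4, 33.0 and 23.5 CPM and at 6 months at 45.1, 49.1, 33.7, 51.4, 31.7 and 44.8 CPM. DESeq2 called this gene. Vegfc was lower at 9 months by -0.43 (-0.69 to -0.17) in venous EC, with adjusted p = 0.169. In SMC the fitted age difference was -1.59 for Flt1, -1.88 for Kdr and -2.09 for Tek, and none of them was called (adjusted p between 0.281 and 0.499). These rest on few UMIs: R182C-TgN3 4, a mouse of 6 months, held 30 of the 61 Kdr UMIs and 30 of the 67 Tek UMIs. No other mouse held more than 8 Kdr or 7 Tek UMIs in SMC. The summed endothelial check markers in these SMC were at 0.689% to 1.44% of the EC level in the 5 mice of 9 months. In the 6 mice of 6 months they were at 0.784% to 5.08%, with the highest value in R182C-TgN3 4. The ages thus overlapped, and the part of these markers in the difference was not tested.

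The interaction of genotype and age was tested in a fit of 4 groups. No member was called in any type, where 0.00731% of all genes were called in EC (1 gene) and 0% in the 6 other types (edgeR quasi-likelihood test). At an unadjusted p under 0.05 stood 2.4% of all genes in EC, 1.82% in arterial EC, 2.69% in capillary EC, 3.78% in venous EC, 4.66% in fenestrated EC, 2.56% in SMC and 5.21% in PC. The members among them were Angpt1 in capillary EC (log2 difference of differences 2.66, 95% interval 0.84 to 4.47), which rests on 2 to 22 UMIs per mouse, and Vegfc and Flt1 in fenestrated EC (-1.67 and 0.64). Their adjusted p lay between 0.983 and 0.9999.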

How the data were processed

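Brains were digested to microvascular fragments, enriched with beads against CD31 and dissociated, and 11 libraries were made with 10x 3′ chemistry. The authors deposited raw UMI counts per gene and barcode, made per the submitters' processing notes with Cell Ranger 7.0.0 on mm10, to which human NOTCH3 was added. Samples were grouped by the genotype in the labels. The members and all gene lists were chosen with earlier results of these data known. Barcodes were required to hold 500 or more detected genes, with mitochondrial transcripts making up no more than 10% of UMIs, and barcode sequences found in more than 1 library were left out. Types were assigned by detected gate markers (at least 4 of lists of 6 or more, at least 3 of shorter ones, and for capillary EC at least 3 with at most 2 markers of other subtypes). Cells with more than 1 class were left out in place of a doublet caller.

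UMIs were summed per mouse and type where at least 20 cells were present. Levels used log2(CPM + 1) and a 2-sided exact sign-flip permutation test. Genotype, age and interaction used edgeR 4.0.16 (R 4.3.3) with TMM, filterByExpr and the quasi-likelihood test, without covariates for genotype and without ribosomal, mitochondrial, Gm and Rik genes, with Benjamini-Hochberg adjustment over all genes of a type. DESeq2 1.42.0 was an alternative. Each mouse is 1 sample, and p-values measure the spread between mice. On simulated counts with EC library sizes, 34.3%, 86.4% and 96.9% of genes changed by 0.5, 1 and 2 on the log2 scale were called (13019 genes), with SMC 24.2%, 81% and 100% (8101 genes) and with PC 15%, 75.9% and 100% (1918 genes). In each type 200 genes were changed at once, which makes the adjusted threshold easier to pass than for a single changed gene. These shares can therefore overstate how often 1 changed member would be called, which was not simulated. Named were the 10 members in every type, NOTCH3 and Notch3, for each member the 3 genes with the most similar pattern, and of the pathway lists the called genes or else the 3 largest differences in EC, SMC and PC. The pathway levels named by highest type were chosen after their values were seen. Promoters came from RefSeq on GRCm38.p6, where 8 of the 10 members had a window (not Angpt1 and Angpt2).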

Additional observations from a re-analysis of the deposited data

Results flagged for a closer look

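In 105 groups of mice of 1 genotype, for 1 gene and 1 type with a mean of at least 10 UMIs per mouse, the most extreme mouse was compared with the others by Dixon's ratio, and 6 groups (5.71%) held a mouse that stood apart, about the share chance alone gives. A further 55 groups had fewer UMIs and were not compared. The minimum was chosen after seeing the data and the groups share mice, so the nearness to a chance share is a description only. Vegfc was at 46.31 CPM in capillary EC of R182C-TgN3 4, with the other CADASIL mice between 16.1 and 26.0 CPM. In fenestrated EC, Vegfc was at 138.6 CPM in R182C-TgN3 5 (others 23.5 to 45.5 CPM) and at 120.2 CPM in WT-TgN3 5 (others 32.9 to 55.3 CPM). Flt4 in fenestrated EC was at 248.7 CPM in WT-TgN3 5 (others 137 to 149 CPM). Flt1 in SMC was at 192 CPM in R182C-TgN3 4 (others 13.2 to 33.1 CPM), the library in which endothelial check markers in SMC reached 5.08% of their EC level. Angpt2 in arterial EC was at 14.1 CPM in R182C-TgN3 5 (others 5.56 to 8.60 CPM).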

How the results depend on the processing

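No member was called between genotypes under any of the 26 alternatives, and the 4 differences in the Kdr to Flt1 ratio kept their direction and call in all 76 recomputations (2.12 to 2.28 for fenestrated over capillary EC). Between 30 and 35 of the 70 neighbour pairs passed when single mice were left out and 31 to 35 under the other alternatives, against 33. For age, the members called went from 0 to 1 with DESeq2 and to 4 without the filter on low counts, and for the interaction from 0 to 1 without that filter, where more genes were tested. Calls for age over all genes rose too. In arterial EC, where DESeq2 called Angpt1, it called 300 of 11176 genes against 125 of 11183 by edgeR. Over the 3 alternatives other than left-out mice, the highest count was 412 in arterial EC, 174 in SMC and 126 in fenestrated EC. The counts of members are therefore not read as a result about them. A sign change in a value without a call was counted as a reversal only where the value moved by at least its standard error. Between genotypes, over left-out mice Flt4 in EC ranged from -0.114 to 0.0146, Vegfc in fenestrated EC from -0.835 to 0.058 and Flt4 in fenestrated EC from -0.144 to 0.107, with the positive values without WT-TgN3 5, Flt1 in SMC ranged from -0.417 (without R182C-TgN3 4) to 1.12, and Vegfc in fenestrated EC became 0.00167 with a looser gate. With a stricter gate the level differences reversed to -0.0181 for Flt1 (arterial over capillary EC), -0.000843 for Kdr (venous over capillary), -0.21 for Flt4 (venous over arterial), 0.15 for Nrp1 (PC over MG) and -0.0341 for Tie1 (capillary over arterial). With a looser gate they reversed to -0.39 for Vegfa (PC over B cells), -0.28 for Vegfc (venous over fenestrated EC), 0.0897 for Flt4 (PC over MG), -0.00378 for Nrp1 (arterial over venous), -0.32 for Angpt1 (PC over arterial EC), -0.57 for Angpt1 (B cells over fenestrated EC) and 0.48 for Angpt1 (fenestrated over capillary EC). Without the cells with the most UMIs Kdr (venous over capillary) was at -0.0105 and Flt4 (venous over arterial) at -0.0433, and without ribosomal, mitochondrial and haemoglobin genes Tek (arterial over venous) was at -0.0269. The cause of these reversals was not tested. Of the 5 pairs of mice with the same age and number, 3 had a correlation above 0.1 in EC (0.158, 0.26 and 0.369) and the others had -0.106 and -0.0556, against a median of -0.0425 for the other pairs across genotypes, so the numbers were not taken to pair the mice. The mice of each pair also shared a batch. The fit with a replicate block called 0 members and 4 genes in PC, against 1. Over all genes, the calls between genotypes in PC ranged from 1 to 20 and in SMC from 1 to 2. For age in EC they ranged from 0 to 349 over left-out mice, with 605 by DESeq2. The interaction called 0 to 20 genes in EC and 0 to 40 in fenestrated EC over left-out mice, and 123 in fenestrated EC without the filter. The interaction in PC without WT-TgN3 4 could not be fitted. Keeping the shared barcodes was chosen after seeing the data. Low counts limit what was tested: Vegfa had 57 UMIs over all capillary EC, and 5 members passed the filter in SMC and 2 in PC.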
